A study of Rattus norvegicus with 18 samples.

Results

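A set of 10 genes that the retinal pigment epithelium (RPE) uses to move ions, water and metabolites or to secrete proteins were followed across the series: Best1, Kcnj13, Aqp1, Slc16a1, Slc16a8, Ttr, Cst3, Efemp1, Serpinf1 and Ptgds. They were chosen by name, and all 10 were found among the 32285 genes of the retina table and the 32552 genes of the RPE/choroid table. The study sequenced RNA from neural retina and from RPE/choroid (the epithelium together with the vascular layer behind it) of female wild-type Fischer 344 rats, an albino strain, with 3 libraries per tissue and group. Young rats were 4 months old by the sample labels, whereas the text of the study gives 3 months. Aged rats were 24 months old and drank plain water. 8-AG rats were aged rats that received 8-aminoguanine, an inhibitor of purine nucleoside phosphorylase, in the drinking water at 5 mg/kg per day for 8 weeks from 22 months of age. The libraries were polyA-selected, except that the label of the 3 8-AG retina libraries reads total RNA. Each tissue is a mixture of cells, so fewer RPE cells and less RNA per RPE cell cannot be told apart.

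The RPE is a single layer of cells between the photoreceptors and the choroidal blood supply. Its channels and aquaporins carry ions and water from the subretinal space towards the choroid, its monocarboxylate transporters carry the lactate that the retina makes, and its visual-cycle enzymes, of which RPE65 is the isomerase, return retinoid to the photoreceptors. It also secretes carriers, protease inhibitors and matrix proteins on both faces. Several of these genes are active elsewhere in the eye: Slc16a1 and Cst3 in retinal cells, Aqp1 in amacrine cells, photoreceptors and choroidal vessels, and Ptgds in glia and ciliary epithelium.

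For all 10 genes, RefSeq (build GRCr8) gives the 250 bases before a transcription start. These were searched on both strands, together with 50 bases after the start, for CACGTG and CATGTG, the E-box forms bound by MITF-family factors, and for GGATTA, a form bound by OTX factors. The 3 stretches below are shown because they belong to genes whose levels are followed closely below, with E-boxes in capitals.

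Serpinf1 (chr10:60760899-60761148, minus strand): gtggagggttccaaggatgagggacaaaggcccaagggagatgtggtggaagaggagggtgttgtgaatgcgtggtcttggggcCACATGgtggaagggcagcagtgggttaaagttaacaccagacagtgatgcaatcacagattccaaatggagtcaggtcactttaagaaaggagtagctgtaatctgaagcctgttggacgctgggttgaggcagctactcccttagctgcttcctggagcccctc
Slc16a8 (chr7:112702497-112702746, minus strand): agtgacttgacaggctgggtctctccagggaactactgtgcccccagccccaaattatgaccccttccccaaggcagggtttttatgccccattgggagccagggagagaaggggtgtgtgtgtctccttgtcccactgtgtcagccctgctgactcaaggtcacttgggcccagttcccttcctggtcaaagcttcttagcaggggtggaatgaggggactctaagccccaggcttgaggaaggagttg
Aqp1 (chr4:85812534-85812783, plus strand): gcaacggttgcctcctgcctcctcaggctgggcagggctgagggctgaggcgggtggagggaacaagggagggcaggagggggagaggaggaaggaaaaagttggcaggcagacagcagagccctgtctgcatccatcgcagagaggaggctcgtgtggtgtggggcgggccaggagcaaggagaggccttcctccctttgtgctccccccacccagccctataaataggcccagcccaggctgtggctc

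In Serpinf1 the capitals mark a CATGTG on the opposite strand at positions -166 to -161 from the start. Slc16a8 and Aqp1 held none of the searched letters. Elsewhere, Kcnj13 held CATGTG at -129 to -124, Best1 at 32 to 37 after the start, and Slc16a1 held CACGTG at -216 to -211. The windows of Kcnj13, Slc16a1 and Ttr lie wholly within the RefSeq span of their genes, and those of Best1, Cst3 and Efemp1 partly, so their positions count from a start inside that span. Of 33469 rat promoters of this length, 6.42% held CACGTG, 14% held CATGTG and 7.17% held GGATTA, so these matches are a description of the letters only.

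Levels are given as CPM, counts scaled to library size with TMM factors within a tissue. The tissues were scaled separately, so a level in retina and a level in RPE/choroid set side by side were not tested against each other. Library totals were 12283458 to 15644346 expected counts in retina and 28573828 to 48203050 counts in RPE/choroid. Replicates carry the numbers of the labels, which have no order. The labels do not say whether libraries 1 and 2 of young RPE/choroid, which share a label number with the letters L and R, came from the same rat, nor libraries 1 and 2 of aged RPE/choroid. The p-values therefore measure the spread between libraries.

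The tissue labels were checked against marker lists. Summed rod genes were 36734 to 63580 CPM in retina and 599 to 54599 CPM in RPE/choroid, where libraries with much rod RNA were young 1 and 2, aged 1 and 3 and 8-AG 1. Rpe65 was 2.16 to 63.6 CPM in retina and 26.7 to 611 CPM in RPE/choroid, so the ranges overlapped. Otx2, a defining factor of the RPE that is also active in retina, was at most 0.995 CPM in RPE/choroid and 43 to 64.6 CPM in retina; it was named here after its values were seen. RPE/choroid library 1 of 8-AG stood apart: striated muscle genes summed to 30623 CPM there against 13.7 to 3085 CPM in the other 8 libraries, surface epithelium genes to 1900 CPM against 3.72 to 275 CPM, and the 6 melanin genes found to 772 CPM against 6274 to 17725 CPM. In that library endothelium, stroma, Schwann cell and macrophage genes were also lowest of all RPE/choroid libraries, at 596, 1097, 110 and 410 CPM. Lens genes were uneven in retina, with 2840, 6362 and 151 CPM in young, 13.8 to 19.7 CPM in aged, and 1749, 14.5 and 16.8 CPM in 8-AG libraries.

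**Figure D1:**
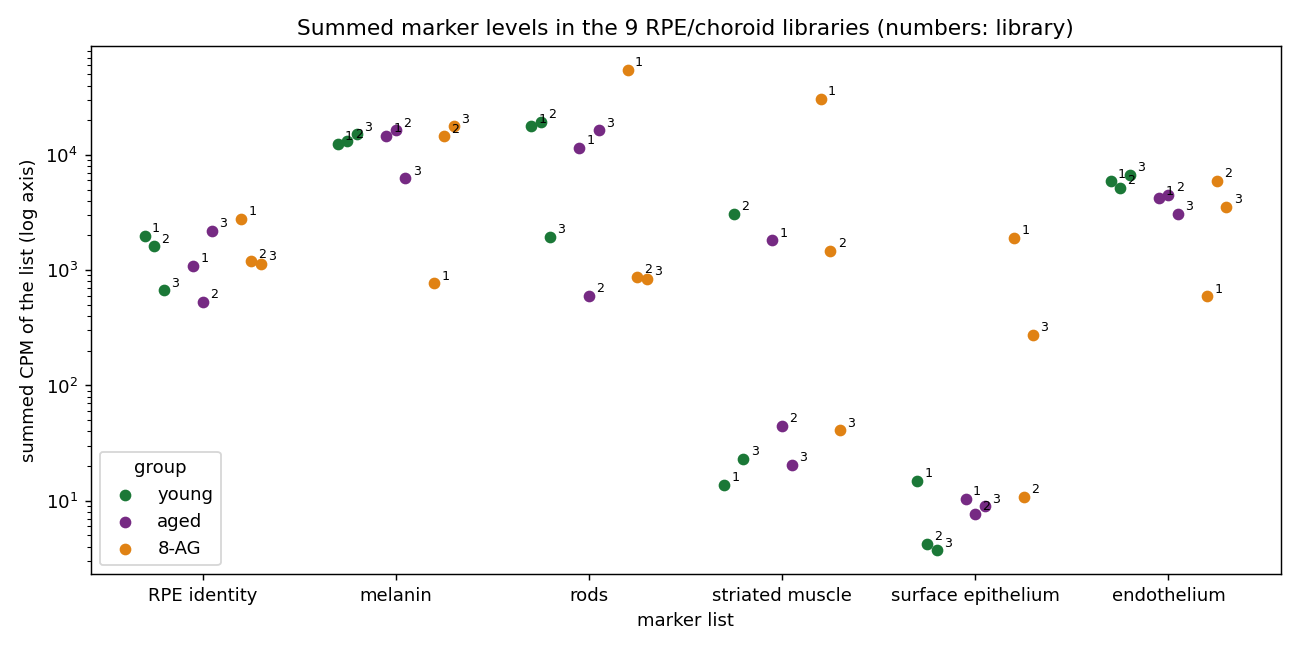
Summed CPM of 6 marker lists (log axis) in the 9 RPE/choroid libraries, 1 point per library with its number, coloured by group. 8-AG library 1 has the most rod and striated muscle RNA (54599 and 30623 CPM) and the least melanin and endothelium RNA (772 and 596 CPM).

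Do the genes change with age in neural retina? Aqp1 and Slc16a1 fell, and the other 8 genes passed no threshold in edgeR. Aqp1, a water channel, had 159, 169 and 129.8 CPM in the young libraries and 63.4, 55.1 and 65.5 CPM in the aged ones. All aged values lay below all young ones, with means of 153 ± 20.4 CPM for young and 61.3 ± 5.53 CPM for aged libraries (SD, n = 3 each). The log2 fold change was -1.32 (SE 0.11), a level 2.49 times lower, with an adjusted p of 0.000307 in edgeR's quasi-likelihood test. With the 8-AG libraries in the same fit, which share their spread with the others, Aqp1 kept a log2 fold change of -1.32 with an SE of 0.35 and an adjusted p of 0.0555 in edgeR. Lens genes were also lower in every aged library; with young libraries 1 and 2, which held the most lens RNA, left out, Aqp1 gave -1.08 with an adjusted p of 0.00358 in edgeR, an alternative chosen after seeing the data that rests on 1 young library, itself with 151 CPM of lens RNA, assumed to vary like the aged ones.

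Slc16a1 encodes MCT1, a monocarboxylate transporter used by many cell types, retinal cells and vessels included. It had 244.5, 250.4 and 242 CPM in young and 159, 139.8 and 167 CPM in aged retina, again without overlap, and the young libraries lay close together. The log2 fold change was -0.66 (SE 0.07; 1.58 times lower), with an adjusted p of 0.000431 in edgeR. Among all genes tested in this comparison 14.5% passed an adjusted p of 0.05, 8.84% passed the study's rule (over 1.5-fold, with P below 0.05 before adjustment; here the fold rule), and 35.3% did not overlap between the groups. The 2 of 10 genes were the same under all 3 rules and both were lower. At an unadjusted P under 0.05, edgeR counted 2 of the 10 and 29.2% of all genes, and DESeq2 counted 4 of the 10 and 16.9% of all genes. Rod genes fell beside them: 13 of 13 tested were lower and 10 passed the adjusted p, and with the rod score as a covariate neither Aqp1 (-1.20) nor Slc16a1 (-0.08) passed. In that fit 1 of 14588 genes was called. The rod score, a mean log2 CPM of rod genes, was 11.1 to 11.2 in young and 10.4 to 10.6 in aged retina. It separates the groups fully, so this fit cannot tell age from rod content and decides nothing about either gene.

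The other channels and transporters gave low or scattered levels in retina. Best1, the calcium-activated chloride channel of the basolateral RPE membrane, had 18.7, 15.3 and 9.18 CPM in young and 14.3, 12.7 and 13.3 CPM in aged retina. Kcnj13, the apical potassium channel Kir7.1, had 4.93, 5.04 and 1.42 CPM in young against 10.1, 4.14 and 6.97 CPM in aged libraries, which gave a log2 fold change of 0.90 (SE 0.55; adjusted p = 0.349 in edgeR). Slc16a8, which encodes MCT3, the monocarboxylate transporter of the basolateral RPE membrane, had 1.31, 3.54 and 0.54 CPM in young and 3.98, 1.21 and 4.90 CPM in aged retina. The groups overlapped for all 3 genes, and Slc16a8 rested on 8 to 71 counts per library.

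Among secreted proteins, Ttr varied most. Transthyretin carries thyroxine and, with retinol-binding protein, retinol. Its retinal level was 12.1, 38.5 and 2.498 CPM in young and 47.1, 10.8 and 49.0 CPM in aged libraries, and the log2 fold change of 1.01 was smaller than its SE of 1.13. Cst3, the cysteine protease inhibitor cystatin C, was 404 to 537 CPM in young and 516 to 649 CPM in aged retina (log2 fold change 0.23, SE 0.13). Efemp1, the matrix protein fibulin-3, was 71.6 to 139.8 CPM in young and 112 to 133 CPM in aged retina. Serpinf1, which encodes the serpin PEDF, stayed at 0.61 to 3.08 CPM in both groups, and Ptgds, the lipocalin-type prostaglandin D synthase, had means of 101 ± 39.2 and 101 ± 13.2 CPM (SD, n = 3 each). The lowest level of 8 of the 10 genes over all 9 retina libraries was in young library 3. That library also had the least Rpe65, melanin and, among young libraries, lens RNA; their part in these values was not tested.

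**Figure D2:**
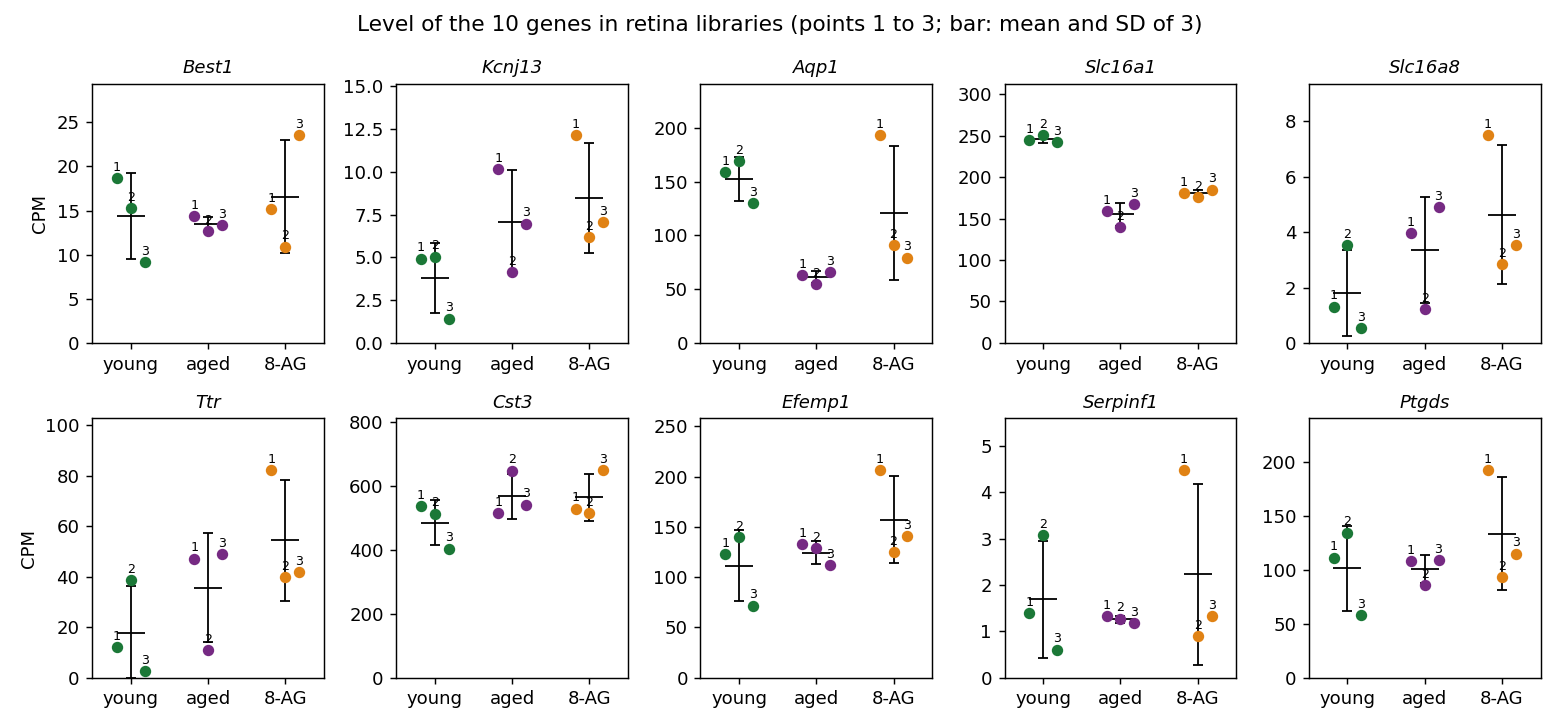
CPM of the 10 genes in the 9 retina libraries, 1 panel per gene, with points numbered by library and a bar for the mean and SD of 3 libraries. Aqp1 and Slc16a1 are lower in all aged libraries (55.1 to 65.5 and 139.8 to 167 CPM) than in all young ones.

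The second question was what 8-AG did to these genes in aged retina. None of the 10 passed either threshold against aged retina, and only Aqp1 and Slc16a1 had groups that did not overlap. A higher fitted level was found for 9 of 10 (7 of 10 without 8-AG library 1, and 7 of 10 with the RPE identity score as a covariate). The median log2 fold change of the 10 was 0.37 (0.069 without 8-AG library 1), against -0.0031 over all genes. The 10 genes share their libraries, so they are not 10 separate observations. The 8-AG retina libraries differ from the aged ones in the labelled RNA type as well as in treatment, although the protocol describes polyA capture for all retina libraries; an effect of RNA type and one of treatment cannot be told apart. Aqp1 was 193, 91.2 and 79.4 CPM in the 8-AG libraries, each above the highest aged value of 65.5 CPM. The log2 fold change was 0.98 (SE 0.39, unadjusted P = 0.0546, adjusted p = 0.996 in edgeR). Library 1 gave most of the size: without it the value was 0.47, with an adjusted p of 0.242 in edgeR. Library 1 was also the 8-AG retina with lens RNA (1749 CPM) and had the highest level of 7 of the 10 genes over all retina libraries. Surface epithelium genes summed to 2.73 to 5.29 CPM in aged and 12.4 to 28.3 CPM in 8-AG libraries. The part of lens, RPE or surface epithelium RNA in these values was not tested.

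Slc16a1 had 181, 176 and 185 CPM in 8-AG retina, narrowly above the aged range of 139.8 to 167 CPM and far below the young one. Its log2 fold change was 0.21 (SE 0.08; 1.16 times higher) with an unadjusted P of 0.0255 and an adjusted p of 0.996 in edgeR. Over all genes tested, 0.0205% passed the adjusted p, 0.957% passed the fold rule and 8.78% did not overlap. At an unadjusted P under 0.05 edgeR counted 1 of the 10 genes and 3.67% of all genes, and DESeq2 counted 3 of the 10 and 2.17% of all genes.

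The remaining 8 genes overlapped between 8-AG and aged retina. Ttr had 82.1, 39.7 and 41.7 CPM (log2 fold change 0.61, SE 0.69), Kcnj13 had 12.1, 6.19 and 7.08 CPM (0.26, SE 0.38), and Slc16a8 had 7.49, 2.85 and 3.54 CPM (0.46, SE 0.57). With the RPE identity score (the mean log2 CPM of 10 RPE genes) as a covariate, the fitted values of these 3 genes were -0.06, -0.21 and -0.23. The score includes Rpe65, Rlbp1 and Otx2. Over the retina libraries Rlbp1 was 200 to 315 CPM and Otx2 43 to 64.6 CPM, whereas Rpe65 was 2.16 to 63.6 CPM. Otx2 was at most 0.995 CPM in RPE/choroid. In retina the score is therefore not a measure of RPE RNA alone. Best1 (10.9 to 23.5 CPM), Efemp1 (125 to 206 CPM), Serpinf1 (0.90 to 4.48 CPM) and Ptgds (93.0 to 192 CPM) had 8-AG ranges that began within or below the aged range and ended above it. Cst3 was the gene with a fitted value below 0, at -0.01 (SE 0.11).

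In RPE/choroid, the tissue in which these genes are best known, aging moved none of them past a threshold. The comparison called 0% of genes at the adjusted p, 1.35% by the fold rule and 7.1% by not overlapping, and 0 of the 10 genes by each of these. At an unadjusted P under 0.05, edgeR found 0 of the 10 and 341 of 16047 genes (2.13%), and DESeq2 found 0 of the 10 and 2.11% of all genes, with 28 genes past its adjusted p. Best1 had 562, 733 and 854 CPM in young and 568, 992 and 641 CPM in aged RPE/choroid. The means were 716 ± 146 and 734 ± 227 CPM (SD, n = 3 each), with a log2 fold change of 0.03 (SE 0.28). Kcnj13 had 421, 439 and 502 CPM in young and 420.3, 578 and 308 CPM in aged libraries (log2 fold change -0.06, SE 0.26). Both channels therefore spread more among the 3 aged libraries than they differed between the groups.

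Aqp1 in RPE/choroid had 371, 296 and 431 CPM in young and 401, 415 and 252 CPM in aged libraries, a log2 fold change of -0.04 (SE 0.26). Its aging change was compared between the tissues with an interaction term. The change in RPE/choroid minus that in retina was 1.26 (SE 0.30), with an unadjusted P of 0.00164 and an adjusted p of 0.126 in edgeR. At the adjusted p, 0 of the 10 genes and 0.161% of all genes had an aging change that differed between tissues; at an unadjusted P under 0.05, Aqp1 was the 1 gene of the 10 in edgeR and in limma, which counted 8.25% and 7.06% of all genes.

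Slc16a1 came nearest to a change in RPE/choroid. It had 164, 165 and 111 CPM in young and 117, 86.3 and 117 CPM in aged libraries, a log2 fold change of -0.47 (SE 0.21, unadjusted P = 0.0662 in edgeR). Young library 3 lay within the aged range; without it the value was -0.64, which passed the fold rule, as did 228 of 16350 genes, with an adjusted p that rounded to 1 in edgeR. Its aging change differed between the tissues by 0.18 (SE 0.23), less than the standard error.

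Slc16a8 and Ttr varied far more between libraries than between groups. Slc16a8 had 275, 206 and 65.7 CPM in young and 91.4, 28.9 and 277 CPM in aged RPE/choroid, and Ttr had 1605, 1169 and 331 CPM in young and 635, 261 and 1723 CPM in aged RPE/choroid. Both genes were low in young 3 and aged 2 and high in young 1 and aged 3. Their log2 fold changes of -0.48 (SE 0.87) and -0.26 (SE 0.82) were smaller than their errors.

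The other secreted proteins had narrower ranges. Cst3 was 3150 to 3842 CPM in young and 2499 to 4136 CPM in aged libraries (log2 fold change 0.05, SE 0.25). Serpinf1 was 584, 712 and 845 CPM in young and 547, 957 and 704 CPM in aged libraries (0.04, SE 0.26). Efemp1 had 103, 115 and 95.0 CPM in young and 128, 132 and 113 CPM in aged libraries, and Ptgds had 1210, 1328 and 1179 against 1325, 1586 and 1455 CPM. For both genes the groups touched at a single pair of values, and the log2 fold changes were 0.25 (SE 0.13) and 0.23 (SE 0.16).

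**Figure D3:**
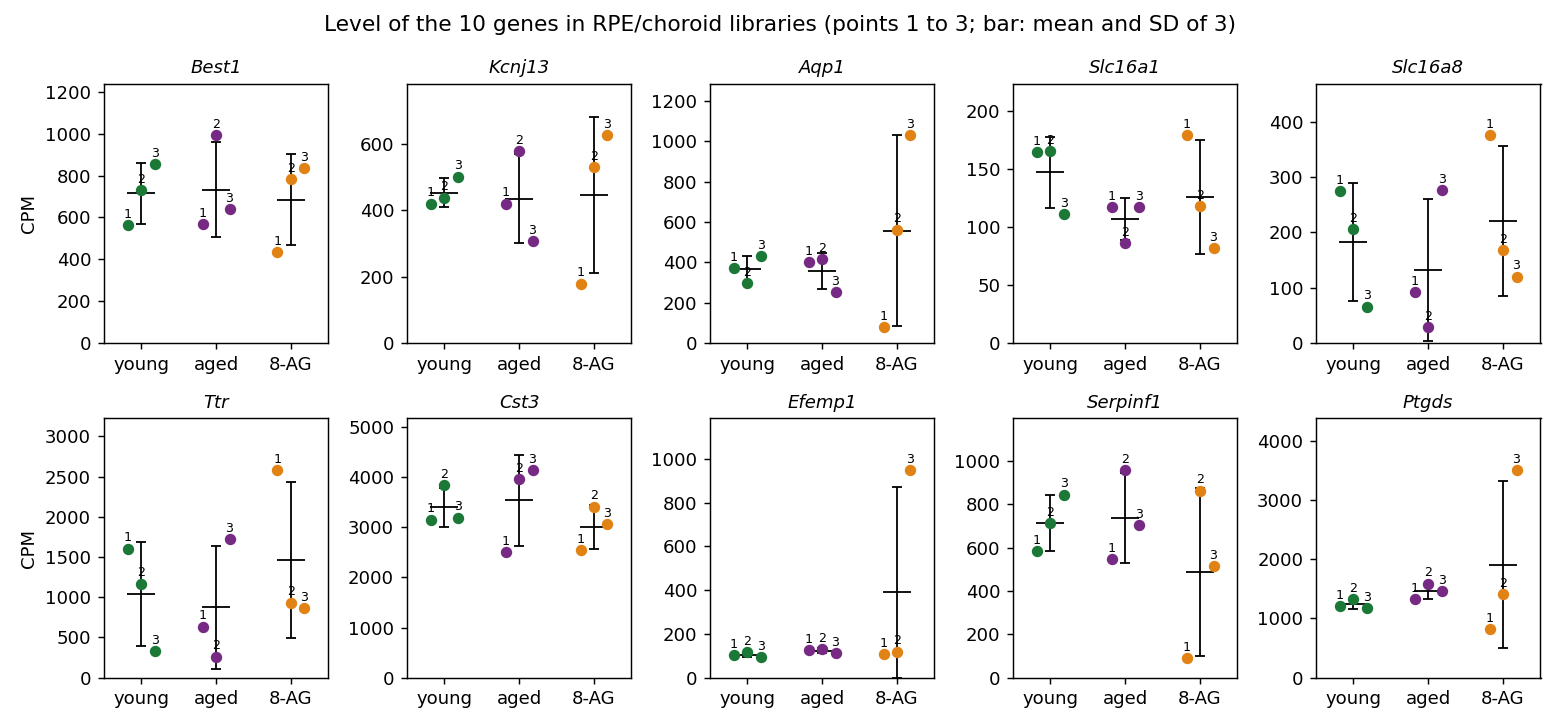
CPM of the 10 genes in the 9 RPE/choroid libraries, drawn as for retina, with SD bars ending at 0 where the SD exceeds the mean. Efemp1, Ptgds and Aqp1 reach 949, 3500 and 1029 CPM in 8-AG library 3, while Serpinf1 and Aqp1 are lowest in 8-AG library 1.

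After 8-AG treatment, RPE/choroid showed no gene of the 10 past either threshold against aged RPE/choroid, and no gene whose groups did not overlap. Among all genes 0% passed the adjusted p, 1.65% the fold rule and 3.96% did not overlap. At an unadjusted P under 0.05 edgeR found 0 of the 10 and 274 of 16257 genes (1.69%); DESeq2 found 0 of the 9 genes it gave a p for and 3.42% of all genes, with 81 genes past its adjusted p. Of the 10 genes, 5 had their lowest and 3 their highest level of all 9 RPE/choroid libraries in 8-AG library 1, and 4 had their highest level in 8-AG library 3.

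In 8-AG library 1 the channels and Serpinf1 were low. Kcnj13 had 179, 531 and 626 CPM in the 3 8-AG libraries, Best1 434, 785 and 838 CPM, Serpinf1 88.6, 864 and 515 CPM, and Aqp1 79.9, 561 and 1029 CPM. Without library 1, the level of Serpinf1 over the other 8 RPE/choroid libraries spanned 1.86-fold, against 10.8-fold with it. The fitted log2 fold changes over all libraries were 0.04 (SE 0.53) for Kcnj13, -0.09 (SE 0.40) for Best1, -0.59 (SE 0.78) for Serpinf1 and 0.65 (SE 0.84) for Aqp1. The value of Serpinf1 was -0.095 without 8-AG library 1 and -1.28 without 8-AG library 2. Without library 1, Aqp1 and Efemp1 passed the fold rule with 1.16 and 2.105, at an adjusted p of 0.925 each in edgeR; 554 of 16553 genes passed it in that fit.

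In 8-AG library 3, 3 secreted or membrane proteins stood high. Efemp1 had 107, 119.6 and 949 CPM in the 8-AG libraries, where the aged range was 113 to 132 CPM. The log2 fold change was 1.66 (SE 0.92), and it was -0.13 without library 3. Ptgds had 816, 1406 and 3500 CPM (0.40, SE 0.59; -0.39 without library 3), and Aqp1 was -0.15 without it. In the same library the 5 genes of the ciliary and choroid-plexus-like epithelium list summed to 176 CPM against 6.80 to 51.6 CPM in the other 8 libraries, and surface epithelium genes to 275 CPM; their part in these values was not tested.

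The transporters and the remaining secreted proteins overlapped widely. Slc16a1 had 179, 118 and 81.7 CPM (log2 fold change 0.27, SE 0.34), and Slc16a8 had 375, 168 and 120.0 CPM (0.78, SE 0.88). Ttr had 2578, 932 and 869 CPM (0.78, SE 0.84), with the high value again in library 1. Leaving out one library at a time gave 0.12 to 1.91 for Slc16a8 and 0.043 to 1.74 for Ttr, lowest without 8-AG library 1 and highest without aged library 3. Cst3 had 2536, 3411 and 3066 CPM (-0.22, SE 0.42). None of the 10 genes had an 8-AG change that differed between the tissues at the adjusted p, as was the case for 0% of all genes; at an unadjusted P under 0.05 edgeR counted 0 of the 10 and 413 of 16915 genes (2.44%), and limma counted 0 of the 10 and 205 genes (1.21%). Both 8-AG comparisons use the same aged libraries as the aging comparisons.

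**Figure D4:**
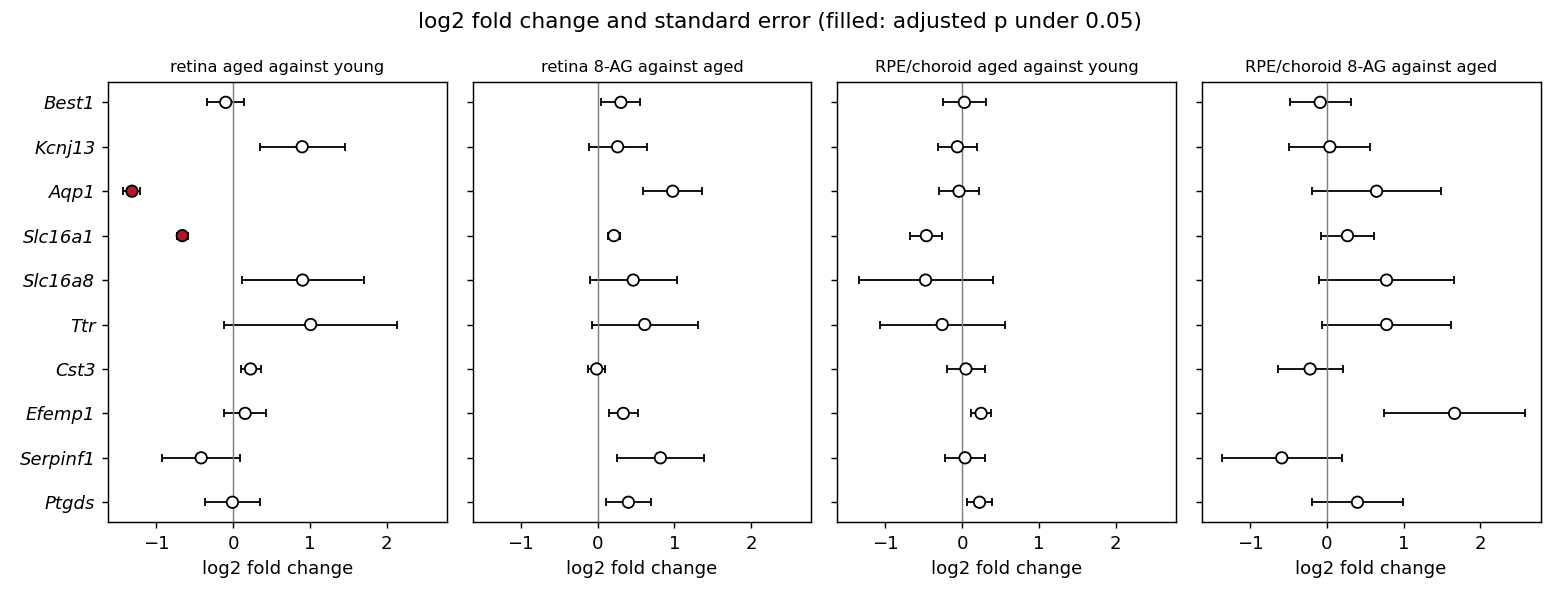
Log2 fold change with its standard error for the 10 genes in the 4 comparisons, from edgeR; filled points have an adjusted p under 0.05. Only Aqp1 (-1.32) and Slc16a1 (-0.66) in aged against young retina are filled, and the RPE/choroid errors reach 0.92 for Efemp1.

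The spread between RPE/choroid libraries was shared by some of the genes. Rpe65 had 321, 243.7 and 57.0 CPM in young, 121, 26.7 and 334 CPM in aged and 611, 167 and 108 CPM in 8-AG libraries. Ttr and Slc16a8 ranked the libraries in the same order, except that aged 1 and 8-AG 3 changed places. The SD of the log2 level over the 9 libraries was 1.17 for Slc16a8 and 0.30 once Rpe65 was subtracted, and 1.09 for Ttr and 0.38 once Rpe65 was subtracted. The count ratio to Rpe65 stayed within 0.614 to 1.15 for Slc16a8 and 4.22 to 9.78 for Ttr. For the other 8 genes the SD was larger after subtraction than before, for example 0.37 and 1.71 for Best1. The 4 libraries with the most Rpe65 (8-AG 1, aged 3, young 1 and young 2) also had the most rod RNA, 16384 to 54599 CPM. All points share their libraries and depth, so these values describe the libraries and carry no test.

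In retina, where these RNAs are scarce, the same 2 of 10 genes had a narrower spread beside Rpe65. The SD of the log2 level fell from 1.49 to 0.38 for Ttr and from 0.93 to 0.70 for Slc16a8 across the 9 retina libraries. The count ratio of Ttr to Rpe65 was 1.14 to 2.36 there, and that of Slc16a8 to Rpe65 was 0.0888 to 0.264. Both ranges lay below those in RPE/choroid, from tables that were made separately.

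Against the mean log2 CPM of the 6 melanin genes found, which mark pigment-lineage cells of RPE and choroid even in albino animals, other genes had the narrower spread. Over the 9 RPE/choroid libraries the SD went from 1.04 to 0.61 for Serpinf1 and from 0.99 to 0.68 for Aqp1. With 8-AG library 1 left out, it went from 0.32 to 0.19 for Kcnj13 and from 0.62 to 0.44 for Aqp1 and from 1.09 to 1.02 for Efemp1, whereas it rose from 0.33 to 0.53 for Serpinf1. Over all 9 libraries it rose from 0.55 to 0.90 for Kcnj13 and from 1.03 to 1.52 for Efemp1. Ttr and Slc16a8 spread more beside the melanin genes (2.29 and 2.32) than alone. Endothelium and stroma genes were also lowest in 8-AG library 1, and their part in these spreads was not tested. Relative to the RPE identity genes, to Rpe65 or to the melanin genes, no gene of the 10 separated young from aged or aged from 8-AG RPE/choroid.

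**Figure D5:**
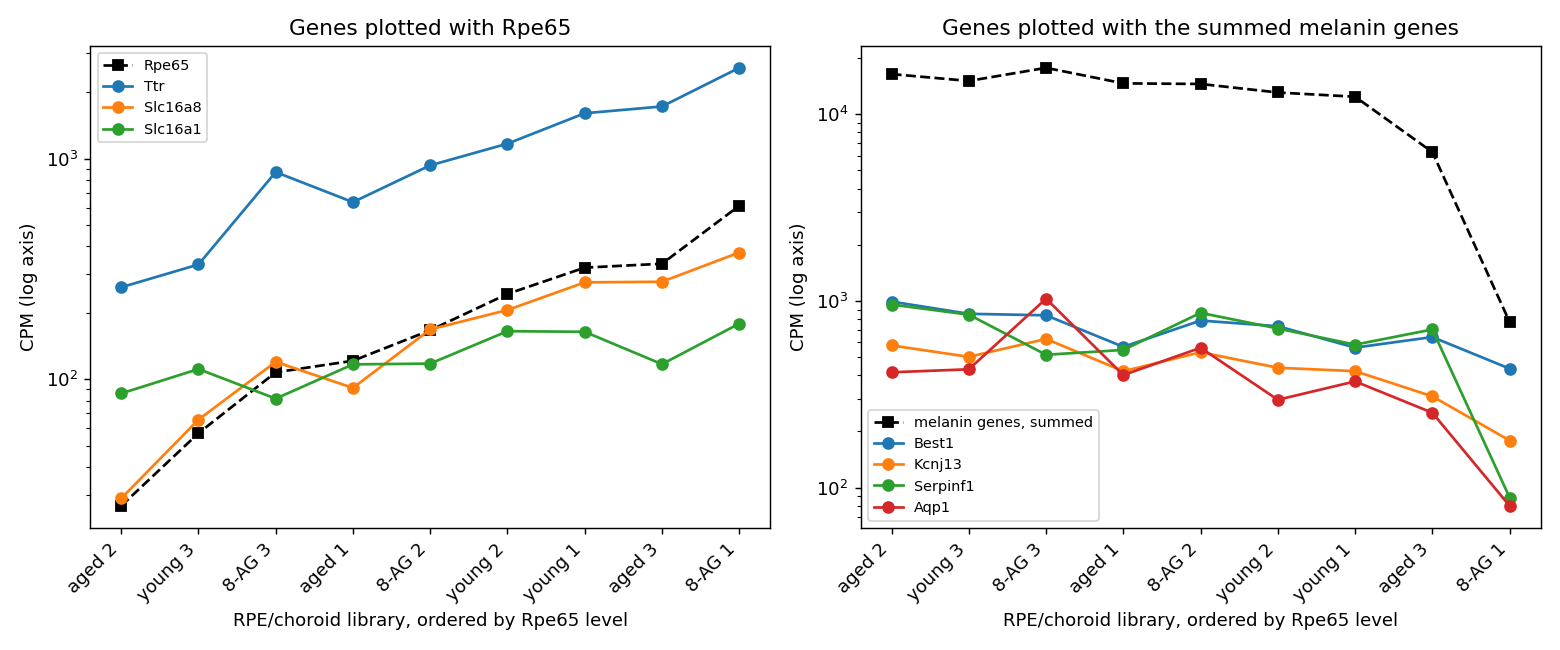
CPM on a log axis in the 9 RPE/choroid libraries ordered by their Rpe65 level, with Ttr, Slc16a8 and Slc16a1 beside Rpe65 (left) and Best1, Kcnj13, Serpinf1 and Aqp1 beside the summed melanin genes (right). Ttr and Slc16a8 climb with Rpe65 from 26.7 to 611 CPM of Rpe65, apart from a step down at aged 1, and Serpinf1 and Aqp1 drop in 8-AG library 1 with the melanin genes. Endothelium and stroma genes, not drawn here, are also lowest in that library.

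A wider list of 55 channels, pumps, transporters, aquaporins and secreted proteins was read beside the 10 genes, and 53 were found. In aged against young retina 50 were tested, 9 were higher and 6 lower at the adjusted p, which 14.5% of all genes passed, and the median log2 fold change was 0.10 against 0.0019 over all genes. By the fold rule, which 8.84% of all genes passed, 5 were higher and 3 lower. Serping1, the C1 inhibitor of complement, had a log2 fold change of 2.83 (SE 0.32, adjusted p = 0.00607), Fgf2, a growth factor, 2.01 (SE 0.23, adjusted p = 0.000842), and Abca1, a lipid exporter, 0.97 (SE 0.10, adjusted p = 0.000316), all in edgeR. Slc6a6, the taurine transporter, was lower by -1.09 (SE 0.08, adjusted p = 6.29e-05), Rbp3, the retinoid-binding protein secreted by photoreceptors, by -0.90 (SE 0.07, adjusted p = 0.000129), and Slc16a6, a further monocarboxylate transporter family member, by -0.63 (SE 0.11, adjusted p = 0.00368), also in edgeR. Markers of other cells moved in the same comparison. Microglia and macrophage genes summed to 35.0 to 36.5 CPM in young and 109.5 to 187 CPM in aged retina, with 6 of 7 tested higher at the adjusted p, among them C1qb (2.60) and Csf1r (1.48). Of 7 Mueller glia genes 3 were higher, Gfap at 3.52 and Clu and Aqp4, which the wider list also holds, and Glul was lower at -0.42. Rod genes summed to 58787 to 63580 CPM in young and 36734 to 41223 CPM in aged retina. The part of these cells in the values of the wider list was not tested.

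None of the wider list passed the adjusted p in the other comparisons. In 8-AG against aged retina 51 were tested and Aqp5, a water channel of surface and secretory epithelia, alone passed the fold rule (0.957% of all genes), at a log2 fold change of 1.46 (SE 0.38) from 0.707 to 1.96 CPM. Surface epithelium genes summed to 2.73 to 5.29 CPM in aged and 12.4 to 28.3 CPM in 8-AG retina, and their part in the value of Aqp5 was not tested. In aged against young RPE/choroid 51 were tested, and Slco1a4, an organic anion transporter, and Enpp2, the secreted enzyme autotaxin, passed the fold rule (1.35% of all genes) at -0.61 (SE 0.19) and -0.66 (SE 0.23). Endothelium genes were also lower there, with sums of 5193 to 6737 CPM in young and 3080 to 4507 CPM in aged libraries, and 2 of the 6 tested, Plvap (-0.73) and Cdh5 (-0.67), passed the fold rule; their part in these values was not tested. In 8-AG against aged RPE/choroid 52 were tested and Aqp3 and Cst6, which are epithelial genes, passed the fold rule (1.65% of all genes) at 7.45 (SE 2.73) and 3.62 (SE 1.45). Their groups overlapped: Aqp3 was 0.0278, 6.50 and 203 CPM in 8-AG libraries from lowest to highest, and Cst6 was 1.11, 17.9 and 62.5 CPM. In that comparison surface epithelium genes were raised in 8-AG libraries 1 and 3, and their part in these values was not tested.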

How the data were processed

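Bulk RNA-seq of 18 libraries was analysed, 9 of neural retina and 9 of RPE/choroid. For retina the authors deposited expected counts from RSEM (11.5% of values not whole), which were rounded here; for RPE/choroid they deposited whole, unnormalized read counts. The submitters' processing notes list Bowtie2 2.1.0, RSEM 1.2.15, edgeR and build Rnor_6.0 without roles; the counter of the RPE/choroid reads is not given in the sources used here. A TMM-scaled signal per gene, which the authors deposited for retina, served for gene symbols and to check that the 10 genes had the same values. Further deposited columns hold the authors' fold changes, p-values and normalized counts and were not used. 0 columns belonged to samples outside the series.

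The 6 libraries of a comparison were fitted over all genes with edgeR 4.0.16 in R 4.3.3 (filterByExpr, TMM, glmQLFit with robust=TRUE, glmQLFTest), with Benjamini-Hochberg adjustment over all genes tested; the aging and 8-AG changes were compared between tissues by an interaction term. DESeq2 1.42.0, limma 3.58.1, other scaling, filters, covariates, summed libraries, a replicate block and libraries left out were alternatives. The standard error is the absolute log2 fold change divided by the square root of F. Scores and log2 differences add 0.5 CPM. The fits were tested on simulated data.

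The 10 genes and all lists were chosen with earlier results of these data known. All 10 genes were named in every comparison. From other lists at most 3 genes per direction were named, those with the smallest P past the adjusted p or past a fold change of 1.5 with P under 0.05; Rpe65 and Rlbp1 could be named as references, and a further reference gene is not reported here. Otx2 was named outside this rule, after its values were seen.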

Additional observations from a re-analysis of the deposited data

How the results depend on the processing

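The call on Aqp1 and Slc16a1 in aged retina held with RLE size factors, DESeq2, no filter, a minimum of 10 counts, unrounded counts, the RPE identity score and each library left out (2 genes at the adjusted p in each, of 10 tested or, with the minimum of 10 counts, of 8). It was 1 of 10 with the 3 groups in one fit, 0 with the rod score as covariate (also 0 by the fold rule) and 4 with young retina libraries 1 and 2 left out (6 by the fold rule; of all 15245 genes 669 and 1585), an alternative chosen after seeing the data that leaves 1 young library, assumed to vary like the aged ones; Efemp1 and Ptgds passed there with 0.80 each. By the fold rule, the count leaving out one library at a time was 2 to 3 in aged against young retina (3 without young replicate 2, with Slc16a8 at 1.86 and 1323 of all 14850 genes), and it was 3 with DESeq2, which added Kcnj13 at 0.90 (1318 of all 20976 genes). In 8-AG against aged retina, where the count was 0, Aqp1 alone passed with DESeq2 (178 of all 20939 genes), a minimum of 10 counts (92 of 13926), the 3 groups in one fit (151 of 14875) and the replicate block (158 of 14631), a count of 1 in each; it was 2 with the rod score (Aqp1 and Serpinf1; 365 of 14631), and 0 to 3 with one library left out (3 without 8-AG replicate 2, with Aqp1, Serpinf1, Ptgds and 219 of all 14949 genes, and 1 without 8-AG replicate 3, with Aqp1 and 226 of 14747). In RPE/choroid it was 0 to 1 in aged against young (1 without young replicate 3, Slc16a1) and 0 to 2 in 8-AG against aged (2 without 8-AG replicate 1), and 1 with the melanin score, added after seeing the data (Aqp1; 698 of all 16257 genes). At the adjusted p, 0 of the 10 genes passed in the other 3 comparisons under every alternative run. The causes were not tested. The rod score separates young from aged retina fully, so the fit with it cannot tell age from rod content there. DESeq2 gave Efemp1 no p in 8-AG against aged RPE/choroid.

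Same-numbered libraries did not always deviate together: their correlations ran from -0.62 to 0.70 over the 4 comparisons. In 8-AG against aged retina each library correlated best with its own number, at 0.054 to 0.11, and in the other comparisons not every library did. Values were centred within groups of 3 libraries, which constrains these correlations, so they cannot show whether the numbers pair the libraries. The replicate block kept 2 of 10 calls in aged retina and changed the counts of all genes past the adjusted p from 2122 to 1698 there and from 3 to 0 in 8-AG against aged retina.

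Of 467 fold changes under other fits, 432 kept direction and call, and 31 changed sign, of which only Ptgds with young retina libraries 1 and 2 left out passed the adjusted p. With young retina libraries 1 and 2 left out it was 0.55 for Best1, 1.04 for Serpinf1, 0.80 for Ptgds in aged against young retina. With the rod score as covariate it was -0.75 for Cst3, -1.62 for Efemp1 in aged against young retina, -0.11 for Best1, 0.11 for Ttr, -0.080 for Serpinf1 in aged against young RPE/choroid and -0.21 for Kcnj13, -0.17 for Aqp1 in 8-AG against aged RPE/choroid. With the replicate block it was 0.061 for Ptgds in aged against young retina, -0.092 for Kcnj13 in 8-AG against aged RPE/choroid and -0.025 for Slc16a1 in the 8-AG change between tissues. With the RPE identity score as covariate it was -0.21 for Kcnj13, -0.23 for Slc16a8, -0.061 for Ttr, 0.12 for Cst3 in 8-AG against aged retina, -0.093 for Best1, 0.045 for Ttr, -0.053 for Serpinf1 in aged against young RPE/choroid and 0.12 for Best1 in 8-AG against aged RPE/choroid. With libraries of a shared label number summed it was -0.10 for Best1, 0.13 for Slc16a8, 0.33 for Ttr, -0.059 for Serpinf1 in aged against young RPE/choroid. With the melanin score as covariate it was 0.0027 for Kcnj13, 0.028 for Aqp1 in aged against young RPE/choroid and 0.075 for Best1 in 8-AG against aged RPE/choroid. With limma voom it was -0.026 for Slc16a1 in the 8-AG change between tissues. With RLE size factors it was 0.033 for Ptgds in the 8-AG change between tissues. With no filter it was 0.016 for Ptgds in the 8-AG change between tissues. With one library left out, 69 of 480 values changed sign, none of them of a called gene. In aged against young retina it spanned -0.34 to 0.14 for Best1, -0.085 to 0.35 for Efemp1, -0.83 to 0.35 for Serpinf1 and -0.29 to 0.25 for Ptgds. In 8-AG against aged retina it spanned -0.038 to 0.53 for Best1, -0.082 to 0.61 for Kcnj13, -0.059 to 0.85 for Slc16a8, -0.12 to 0.10 for Cst3 and -0.16 to 1.19 for Serpinf1. In aged against young RPE/choroid it spanned -0.26 to 0.17 for Best1, -0.32 to 0.14 for Kcnj13, -0.18 to 0.16 for Aqp1, -1.20 to 0.20 for Ttr, -0.067 to 0.24 for Cst3 and -0.20 to 0.20 for Serpinf1. In 8-AG against aged RPE/choroid it spanned -0.27 to 0.20 for Best1, -0.30 to 0.41 for Kcnj13, -0.10 to 0.47 for Slc16a1, -0.15 to 1.16 for Aqp1, -0.13 to 2.105 for Efemp1 and -0.39 to 0.75 for Ptgds. In the aging change between tissues it spanned -0.18 to 0.35 for Best1, -0.11 to 0.31 for Efemp1, -0.32 to 0.85 for Serpinf1 and -0.031 to 0.50 for Ptgds. In the 8-AG change between tissues it spanned -0.56 to 0.15 for Kcnj13, -0.30 to 0.26 for Slc16a1, -0.34 to 1.38 for Slc16a8, -1.13 to 0.20 for Aqp1, -0.57 to 1.04 for Ttr, -0.47 to 1.77 for Efemp1 and -0.79 to 0.37 for Ptgds. Values that kept their sign but moved by over 1.5 times spanned 0.49 to 1.18 for Kcnj13, 0.45 to 1.86 for Slc16a8, 0.48 to 2.30 for Ttr and 0.11 to 0.31 for Cst3 in aged against young retina, 0.47 to 1.22 for Aqp1, 0.18 to 0.91 for Ttr, 0.093 to 0.48 for Efemp1 and 0.045 to 0.61 for Ptgds in 8-AG against aged retina, -1.59 to -0.0095 for Slc16a8 in aged against young RPE/choroid, 0.12 to 1.91 for Slc16a8, 0.043 to 1.74 for Ttr, -0.42 to -0.10 for Cst3 and -1.28 to -0.095 for Serpinf1 in 8-AG against aged RPE/choroid, and 0.022 to 0.31 for Slc16a1 in the aging change between tissues. In the aging change between tissues, further such values spanned -1.24 to -0.58 for Kcnj13 and -2.51 to -0.92 for Slc16a8. They also spanned -2.56 to -0.77 for Ttr and -0.31 to -0.0035 for Cst3. In the 8-AG change between tissues they spanned -0.61 to -0.049 for Best1, -0.41 to -0.098 for Cst3 and -2.11 to -0.39 for Serpinf1. Counts of 8 to 97 per retina library for Slc16a8 and 9 to 58 for Serpinf1 limit what these libraries can show.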
